A study of Homo sapiens with 10 samples.

Results

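The genes described here are 35 genes of the G2 phase and of mitosis, the stretch of the cell cycle in which CDK1 is switched on, the spindle is built and the chromosomes are parted. They were chosen by name, as the rows of the deposited count table whose symbol is on a list of 35 symbols. Each of the 35 symbols matched 1 of the table's 58216 gene identifiers, and 35 of 35 passed the filter on low counts, which left 18127 genes in the test. The study asked what the MN1-BEND2 fusion, a gene fusion of the brain tumour astroblastoma, does as an activator of transcription, and it used TREx293 cells for this. TREx293 are human embryonic kidney 293 cells that carry the tetracycline repressor and an FRT site, at which a construct is inserted by Flp recombinase (pOG44) and kept under blasticidin and hygromycin. Bulk RNA was sequenced from 5 groups of 2 libraries. CTRL is labelled WT, and the other groups carry as a knockin MN1 (a coactivator of transcription), BEND2 (a BEN domain protein), MN1-BEND2 or MN1-CXXC5 (a fusion to a CXXC zinc finger protein), each with an HA tag and induced with doxycycline. The labels do not say whether CTRL received doxycycline, whether a line is 1 clone or a pool, or whether replicates were grown separately. The p-values therefore measure the spread between these libraries, which may be technical.

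Genes of this group are transcribed late in the cell cycle. In resting cells and in G1 their promoters are held silent by the DREAM complex, whose MuvB core sits on a short element called the cell-cycle genes homology region (CHR). Later in the cycle the same core binds MYBL2 and then FOXM1, and the genes are switched on, often together with NF-Y bound to CCAAT boxes. Their products first start mitosis (CDK1, the B cyclins, the CDC25 phosphatases, the Aurora and Polo kinases). The products then attach and watch the chromosomes (kinetochore and checkpoint proteins, motors). Last, they let the chromosomes part (the anaphase-promoting complex) and cut the cells apart (central spindle proteins). In a dividing line such as HEK293 they are abundant, and bulk counts cannot tell fewer cells in mitosis from less RNA per cell.

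RefSeq promoters (GRCh38.p14, the 250 bases before to 50 after the annotated start) were given for 30 of the 35 genes, and those of AURKA, TPX2, TTK, UBE2C and BIRC5 were not analysed here. A CHR match was read as the letters TTTGAA on either strand (TTCAAA on the other) and a CCAAT match as CCAAT or, on the other strand, ATTGG, with CCAATTGG counted once on each strand. The letters TTTGAA stood in 20 of 30 promoters (66.7%), against 15.4% of 27305 RefSeq promoters of the same length. CCAAT stood in 22 (73.3% against 35.7%), at least 2 CCAAT in 15 (50% against 11.3%), and TTTGAA together with CCAAT in 16 (53.3% against 6.08%). A related form, TTTAAA, stood in 12 (40% against 12.3%). The 6 promoters printed here belong to genes whose levels are described below: HMMR and NDC80, lower in the 4 construct lines, BUB1, highest in MN1-BEND2, INCENP, higher in the 4 construct lines, and CCNB2 and PLK1, which carry the usual pair of a CCAAT box upstream of a CHR. Each reads 5′ to 3′ along the gene, and capitals mark TTTGAA and CCAAT on either strand. Their positions are HMMR chr5:163460382-163460681 (plus strand), NDC80 chr18:2571307-2571606 (plus), BUB1 chr2:110678014-110678313 (minus), INCENP chr11:62123761-62124060 (plus), CCNB2 chr15:59104896-59105195 (plus) and PLK1 chr16:23678639-23678938 (plus).
HMMR: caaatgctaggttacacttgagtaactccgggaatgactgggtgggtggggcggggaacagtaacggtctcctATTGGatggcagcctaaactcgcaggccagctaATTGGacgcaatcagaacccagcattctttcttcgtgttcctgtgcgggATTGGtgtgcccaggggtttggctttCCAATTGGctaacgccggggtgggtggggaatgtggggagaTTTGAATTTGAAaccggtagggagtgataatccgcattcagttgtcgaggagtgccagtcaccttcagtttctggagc
NDC80: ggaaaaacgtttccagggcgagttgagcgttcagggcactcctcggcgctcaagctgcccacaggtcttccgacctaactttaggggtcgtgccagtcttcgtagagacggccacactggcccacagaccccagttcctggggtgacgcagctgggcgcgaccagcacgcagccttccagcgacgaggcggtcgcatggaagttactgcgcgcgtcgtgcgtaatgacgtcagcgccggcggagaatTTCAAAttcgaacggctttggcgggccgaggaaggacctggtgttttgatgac
BUB1: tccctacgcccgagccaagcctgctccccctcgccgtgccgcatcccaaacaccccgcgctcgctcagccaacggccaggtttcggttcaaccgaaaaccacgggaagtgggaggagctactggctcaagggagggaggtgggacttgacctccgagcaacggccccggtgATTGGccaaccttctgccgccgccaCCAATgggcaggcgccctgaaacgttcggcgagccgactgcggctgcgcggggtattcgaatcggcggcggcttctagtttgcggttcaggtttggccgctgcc
INCENP: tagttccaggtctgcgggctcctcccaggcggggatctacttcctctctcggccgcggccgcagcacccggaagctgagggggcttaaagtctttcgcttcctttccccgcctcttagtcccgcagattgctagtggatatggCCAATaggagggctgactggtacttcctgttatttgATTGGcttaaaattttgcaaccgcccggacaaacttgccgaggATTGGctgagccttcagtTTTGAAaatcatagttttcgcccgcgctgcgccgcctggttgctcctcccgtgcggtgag
CCNB2: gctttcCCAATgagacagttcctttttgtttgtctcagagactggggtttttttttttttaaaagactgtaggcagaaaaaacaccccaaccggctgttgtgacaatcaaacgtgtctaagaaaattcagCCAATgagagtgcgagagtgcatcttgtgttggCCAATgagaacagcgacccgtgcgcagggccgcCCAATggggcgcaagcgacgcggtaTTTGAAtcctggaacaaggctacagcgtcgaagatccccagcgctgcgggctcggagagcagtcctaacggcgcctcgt
PLK1: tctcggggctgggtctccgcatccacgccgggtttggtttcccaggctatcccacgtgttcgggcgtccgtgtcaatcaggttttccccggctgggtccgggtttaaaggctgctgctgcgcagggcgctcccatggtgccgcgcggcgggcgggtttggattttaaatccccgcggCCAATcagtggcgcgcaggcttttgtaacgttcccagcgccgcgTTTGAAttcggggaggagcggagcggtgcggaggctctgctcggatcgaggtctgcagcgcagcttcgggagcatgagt
Counted from the start site to the first base of the match, TTTGAA lay at -29 in CCNB2 and at -29 in PLK1, with the nearest CCAAT at -54 and -73. HMMR held 2 TTTGAA, the nearer at -22, and 5 CCAAT, NDC80 held TTTGAA at -3 and no CCAAT, BUB1 held 2 CCAAT and no TTTGAA, and INCENP held TTTGAA at -10 and 3 CCAAT. A match is a description of these letters, not a shown binding site.

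**Figure D1:**
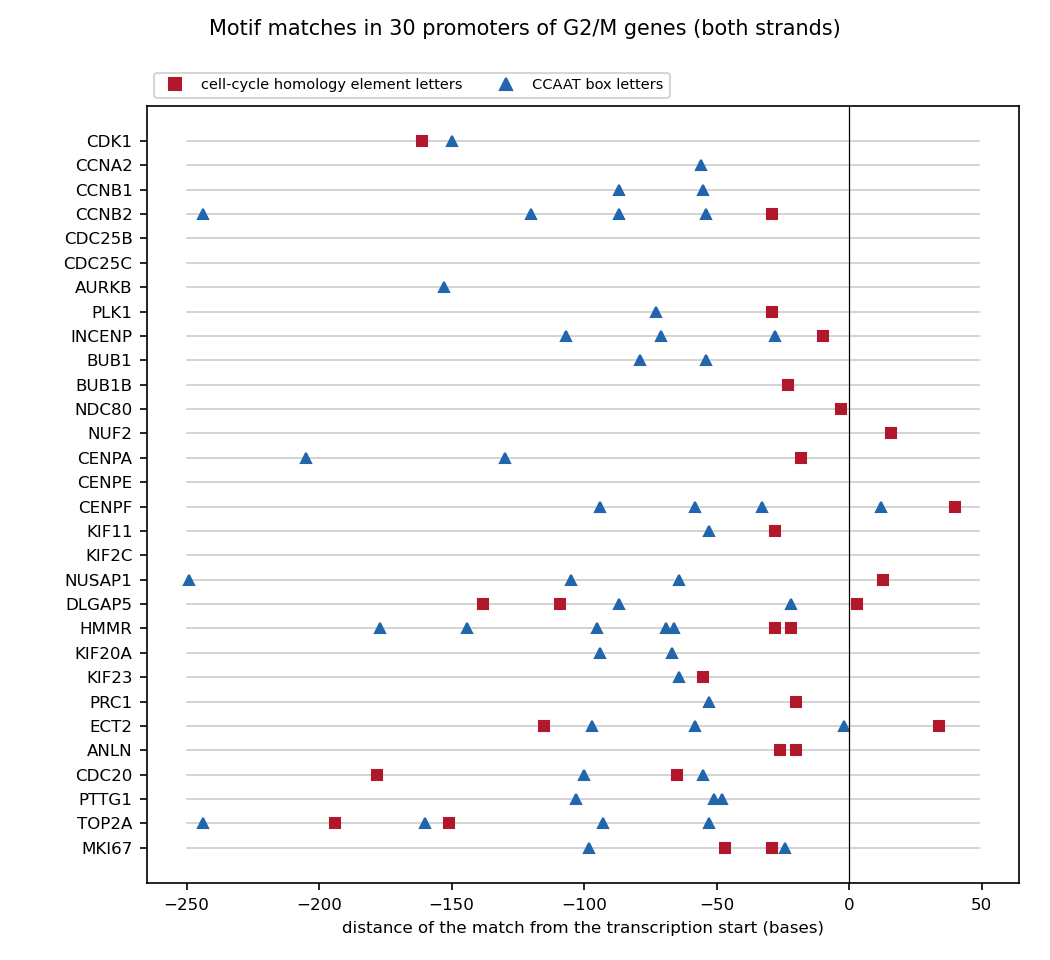
Positions of the letters TTTGAA (red squares) and CCAAT (blue triangles), on either strand, in the RefSeq promoters of 30 genes. The x axis gives the distance in bases of the match's first base from the start site, and each grey line is 1 promoter of 300 bases. TTTGAA was found in 20 of the 30 and CCAAT in 22, and the matches lie mostly in the last 100 bases before the start.

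The libraries held 15.9 M to 26.8 M counts, so that a floor of 3 counts equals 0.112 to 0.189 CPM, a count scaled to a common library size. Levels are CPM with TMM factors, which correct for differences in composition between libraries, given as library values or as mean ± SD (n = 2). MN1 held 127 to 328 CPM in the lines labelled with it and 3.802 to 5.38 in the others, BEND2 389 to 407 against 0 to 0.573, and CXXC5 55.2 to 61.8 against 8.35 to 22.9. CTRL replicate 1 and MN1 replicate 1 also held transcripts of salivary gland and squamous epithelium: the 12 markers summed to 84.7 and 77.3 CPM there and to 0.284 to 2.16 CPM in the other 8 libraries, with HTN3 and PRB1 at 0 everywhere. Their part in the results was not tested directly. Values without these libraries are given below for some of the results that they change, not for all. The 5 kidney markers summed to 26.99 to 55.0 CPM, with LHX1 near 0. Replicate libraries differed by more than counting noise (chi-square per degree of freedom 2.08 to 3.41), so none was counted as a repeat deposit.

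The 35 genes together took 0.608% to 0.669% of a library's counts. Per kilobase of exon, the CTRL level was highest for TOP2A, the topoisomerase that untangles sister DNA (209.6 CPM per kb), followed by CDK1 (103), the spindle assembly factor TPX2 (79.1), cyclin B1 (78.5) and securin, PTTG1 (72.1). The lowest were the passenger complex scaffold INCENP (11.5), the spindle protein NUSAP1 (8.69), the centromeric histone CENPA (7.70) and the central spindle bundler PRC1 (0.659). The smallest count of any of them in a library was 32, for PRC1. In GENCODE v29, 62.2% of the exonic bases of NUSAP1 lie also in AC087721.2 (not analysed here) and 58.4% of those of PRC1 in AC068831.7 and PRC1-AS1, and 53.5% of the AURKA transcript and 84.6% of the CDC20 transcript have copies in pseudogenes (at least 95% identity over 100 bases), so the levels of these 4 genes are uncertain. AC068831.7 held 21.4 to 27.7 CPM in the 10 libraries, several times the level of PRC1, and was not called against CTRL in any line.

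In MN1-BEND2 cells the genes moved both ways, by less than 1.5-fold for 32 of the 35. The checkpoint kinase BUB1 was 1.56-fold higher than in CTRL, and the kinetochore subunit NDC80 and the hyaluronan receptor and spindle protein HMMR were 1.77-fold and 1.70-fold lower. Of the 35 genes, 13 were called higher (37.1%, against 26.7% of all genes tested) and 14 lower (40% against 25.2%), at a Benjamini-Hochberg adjusted p under 0.05 in edgeR's quasi-likelihood test. With a change of at least 1.5-fold also asked for, 3 of 35 were called, 8.57%, against 17% of all genes tested. The median log2 fold change was 0.02 (all genes 0.01) and the median absolute change 0.25 (all genes 0.30). The share called was above that of all genes, and the share past 1.5-fold was below it. The median over the 35 genes of the mean count per library was 2391.6. Shares of all genes, here and below, were not matched to that level, and its part in these differences was not tested. The rises with the largest change were BUB1, NUSAP1, INCENP and CENPA, and the largest falls NDC80, HMMR, the cytokinesis exchange factor ECT2 and the kinetochore protein CENPF. Of the 27 calls, 22 held whichever library was left out. The others, BUB1B, CDC25B, MKI67, PRC1 and UBE2C, had an adjusted p of 0.0579 to 0.254 without CTRL replicate 1 or 2 or MN1-BEND2 replicate 1 or 2, and their values stand with the genes below. NUSAP1 passed 1.5-fold as well without CTRL replicate 1 (1.54-fold) or MN1-BEND2 replicate 2 (1.55-fold), and INCENP without MN1-BEND2 replicate 1 (1.502-fold). Without both CTRL replicate 1 and MN1 replicate 1 the counts were 11 higher and 14 lower.

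In MN1-CXXC5 cells the genes also moved both ways. The proliferation antigen MKI67 was 1.55-fold higher, and PRC1 and UBE2C, the ubiquitin-conjugating enzyme of the anaphase-promoting complex, were 1.63-fold and 1.60-fold lower. Here 8 genes were called higher (22.9% against 19.2% of all genes) and 12 lower (34.3% against 25.1%). At 1.5-fold or more, 3 of 35 were called (8.57% against 13.3%). The median log2 fold change was 0.02 (all genes -0.03), and the median absolute change was 0.13 (all genes 0.26). After MKI67, the largest rises were INCENP, DLGAP5 and ANLN, and after PRC1 and UBE2C the largest falls were HMMR and CDC25C. Of the 20 calls, 13 held whichever library was left out. The others, BUB1, CENPF, NUSAP1, PTTG1, NUF2, PRC1 and TOP2A, had an adjusted p of 0.0504 to 0.293 without CTRL replicate 1 or 2 or MN1-CXXC5 replicate 1 or 2. For PRC1 it was 0.0620 without CTRL replicate 2 and 0.1005 without MN1-CXXC5 replicate 1. MKI67 was under the 1.5-fold mark without CTRL replicate 1 (1.48-fold) or MN1-CXXC5 replicate 2 (1.48-fold). HMMR was over it without MN1-CXXC5 replicate 2 (1.51-fold lower). With offsets for GC content and length MKI67 stayed called at 1.43-fold, also under the mark. INCENP (1.72-fold higher) and HMMR (1.5045-fold lower) were over it with those offsets. Without both CTRL replicate 1 and MN1 replicate 1 the counts were 8 higher and 8 lower.

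Cells with unfused MN1 showed 1 change of at least 1.5-fold, the fall of HMMR (1.70-fold lower, 2.86% of the genes against 9.84% of all genes tested). At the adjusted p alone, 13 genes were higher (37.1% against 21.6%) and 11 lower (31.4% against 21.4%). With offsets for GC content and length the split became 14 higher and 7 lower. The median log2 fold change was -0.01 (all genes 0.00). INCENP, the mitotic kinase AURKB, the contractile ring scaffold ANLN and NUSAP1 rose most, and HMMR, NDC80, the phosphatase CDC25C and PTTG1 fell most. Of the 24 calls, 17 held whichever library was left out. The others, BUB1, KIF23, CENPA, CENPF, NUF2, TPX2 and UBE2C, had an adjusted p of 0.05002 to 0.220 without CTRL replicate 1 or 2 or MN1 replicate 1 or 2, and without CTRL replicate 2 or MN1 replicate 1 the count of lower genes was 7. Without the 2 libraries that hold salivary markers, CTRL replicate 1 and MN1 replicate 1, the counts were 11 higher and 7 lower.

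Unfused BEND2 changed none of the 35 genes by 1.5-fold (0 of 35, against 0.883% of all genes). 10 genes were called lower (28.6% against 7.46%) and 2 higher (5.71% against 6.71%), with a median log2 fold change of -0.11 against 0.00 for all genes. NDC80, HMMR, ECT2 and PTTG1 fell most, and AURKB and INCENP were the genes called higher. Of the 12 calls, 5 held whichever library was left out, those of NDC80, HMMR, ECT2, PTTG1 and TTK. The others had an adjusted p of 0.0515 to 0.218 without CTRL replicate 1 or 2 or BEND2 replicate 1 or 2. The counts were 0 higher and 5 lower without BEND2 replicate 1, 1 and 5 without CTRL replicate 2, 1 and 7 without BEND2 replicate 2, and 1 and 7 without CTRL replicate 1. DESeq2 called 0 higher and 6 lower, and without both CTRL replicate 1 and MN1 replicate 1 the counts were 0 higher and 7 lower.

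**Figure D2:**
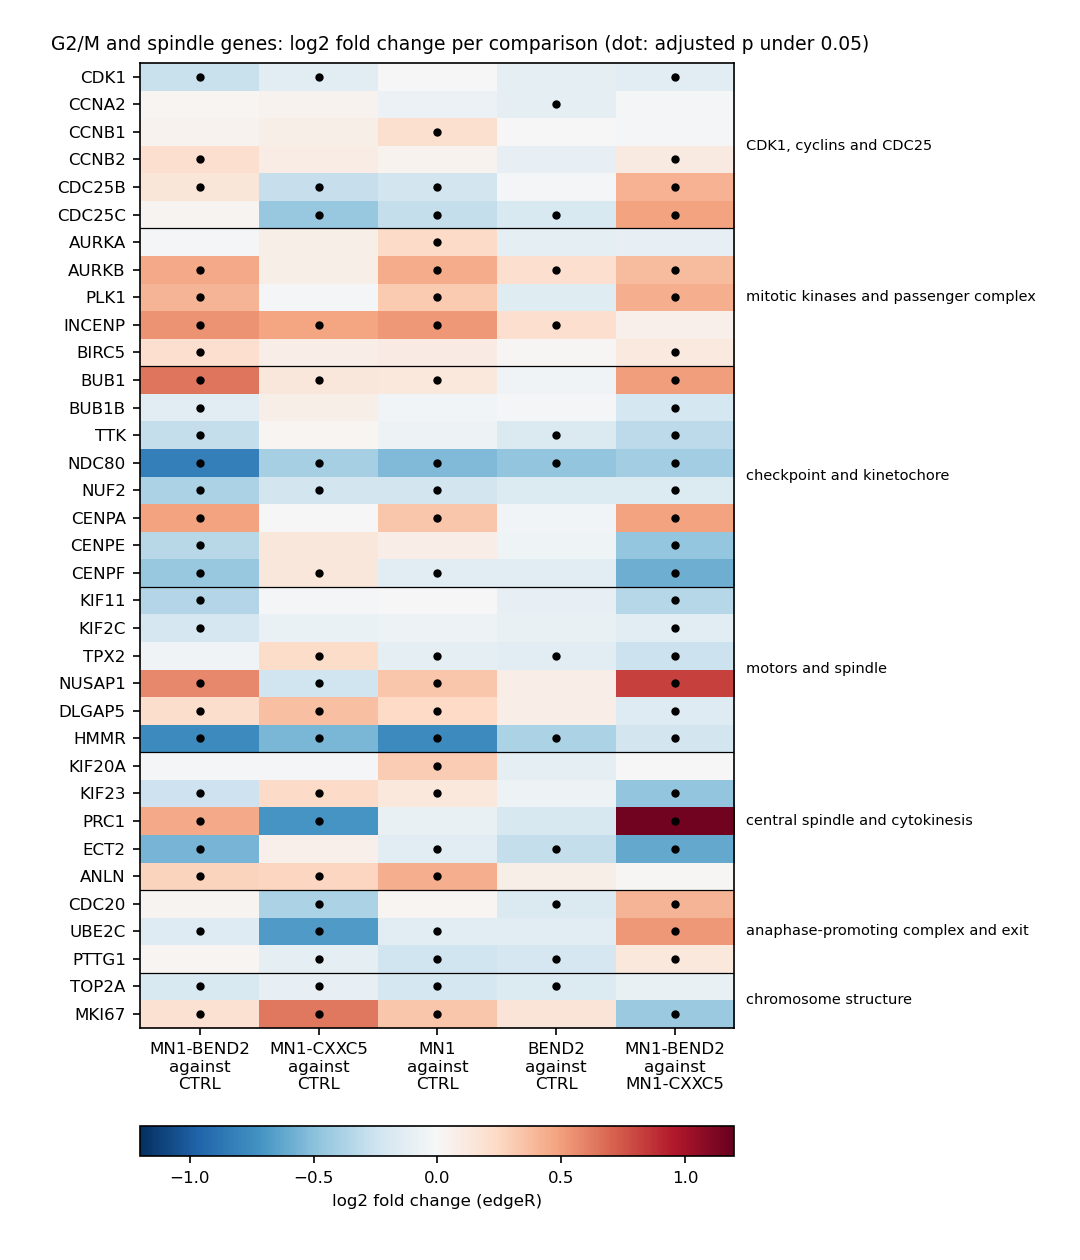
Log2 fold change of the 35 genes (rows, grouped by role) in 5 comparisons (columns), from blue (lower in the first-named line) to red (higher), with a dot where the adjusted p was under 0.05. HMMR and NDC80 are blue and INCENP is red in the 4 columns against CTRL, and within each role group with 3 or more genes some cells are red and others blue.

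CDK1 with its A and B cyclins is the kinase that starts mitosis, and the CDC25 phosphatases remove the phosphates that hold it inactive. Of these 6 genes, 2 were called higher and 1 lower in MN1-BEND2, 0 and 3 in MN1-CXXC5, 1 and 2 in MN1, and 0 and 2 in BEND2, always against CTRL. All genes tested gave 26.7% and 25.2%, 19.2% and 25.1%, 21.6% and 21.4%, and 6.71% and 7.46%, in that order. A difference from them was not tested. CDK1 held 409 and 399.9 in CTRL, 412 and 394 in MN1, 374 and 378 in BEND2, 342 and 332 in MN1-BEND2 and 373 and 364 in MN1-CXXC5, in CPM. Both MN1-BEND2 libraries were below the other 8, and MN1 overlapped CTRL. CDK1 fell by 16.7% in MN1-BEND2, a log2 fold change of -0.26 (SE 0.0328, adjusted p = 2.94e-05), and fell by 8.90% in MN1-CXXC5, -0.13 (adjusted p = 0.00572). With the GC and length offsets the fall in MN1-BEND2 was -0.09 (adjusted p = 0.0546), and without CTRL replicate 1 and MN1 replicate 1 the adjusted p in MN1-CXXC5 was 0.0986. Its change in MN1, -0.01, was among the smallest of the group there.

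CDC25C, the phosphatase that acts at the start of mitosis, held 46.6 and 46.8 in CTRL, 39.1 and 37.5 in MN1, 40.4 and 42.3 in BEND2, 47.0 and 48.4 in MN1-BEND2 and 33.6 and 34.8 in MN1-CXXC5. The MN1-CXXC5 libraries were lowest, MN1 and BEND2 lay between them and CTRL, and MN1-BEND2 lay just above CTRL. The log2 fold change was -0.45 (SE 0.0451, adjusted p = 9.22e-06) in MN1-CXXC5, -0.29 (adjusted p = 0.000227) in MN1 and -0.18 (adjusted p = 0.0149) in BEND2, while in MN1-BEND2 it was 0.03 (adjusted p = 0.585). In BEND2 the call ended without BEND2 replicate 1 (adjusted p = 0.161), without CTRL replicate 1 (0.0665) and without CTRL replicate 2 (0.0873). Its relative CDC25B held 89.2 and 85.0 in CTRL, 73.9 and 75.9 in MN1, 82.6 and 89.8 in BEND2, 98.1 and 94.2 in MN1-BEND2 and 72.5 and 71.6 in MN1-CXXC5. Both MN1-BEND2 libraries lay above CTRL, those of MN1 and MN1-CXXC5 below it, and BEND2 overlapped it. CDC25B was higher in MN1-BEND2 (0.14, adjusted p = 0.0181) and lower in MN1-CXXC5 (-0.27, adjusted p = 0.000536), and both directions turned with the GC and length offsets, to -0.10 and 0.03. Its call in MN1-BEND2 also ended without CTRL replicate 2 (adjusted p = 0.151) and without MN1-BEND2 replicate 1 (0.115).

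The cyclins moved little. Cyclin B1, CCNB1, held 199 and 203 in CTRL, 229 and 230.5 in MN1, 193 and 208 in BEND2, 207 and 208 in MN1-BEND2 and 211 and 210.4 in MN1-CXXC5, and the MN1 libraries were highest. It was called only in MN1, at 0.19 (SE 0.0361, adjusted p = 0.00105). In BEND2 its change of -0.0049 was the smallest of the group. Cyclin B2, CCNB2, whose promoter is printed above, was called higher in MN1-BEND2, at 105 ± 1.10 CPM against 91.7 ± 1.80 CPM in CTRL, 0.20 (SE 0.0346, adjusted p = 0.000424). Cyclin A2, CCNA2, held 141 to 162 CPM over the 10 libraries. It was called only in BEND2, at -0.12 (adjusted p = 0.0470), a call that ended without BEND2 replicate 1 (adjusted p = 0.111), BEND2 replicate 2 (0.218), CTRL replicate 1 (0.189) or CTRL replicate 2 (0.111).

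AURKB, INCENP and BIRC5 (survivin) are subunits of the chromosomal passenger complex, which corrects faulty attachments of chromosomes, and AURKA and PLK1 drive the maturation of the spindle poles. Of the 5 genes, 4 were higher and 0 lower in MN1-BEND2, where 26.7% of all genes were higher, 1 and 0 in MN1-CXXC5 (19.2%), 4 and 0 in MN1 (21.6%), and 2 and 0 in BEND2 (6.71%). With the GC and length offsets the counts were 3 and 0, 4 and 0, 4 and 0, and 1 and 1, and a difference from other genes was not tested. INCENP (chr11:62123973-62153163, GRCh38, plus strand) held 50.2 and 53.0 in CTRL, 72.2 and 76.4 in MN1, 57.7 and 61.1 in BEND2, 72.3 and 77.5 in MN1-BEND2 and 69.1 and 74.4 in MN1-CXXC5. Each construct line lay above CTRL in both libraries, BEND2 by the least. The log2 fold change was 0.54 (SE 0.0536, adjusted p = 4.35e-06) in MN1-BEND2, 0.52 (SE 0.0545, adjusted p = 1.27e-05) in MN1 and 0.47 (SE 0.0552, adjusted p = 2.91e-05) in MN1-CXXC5. In BEND2 it was 0.20 (adjusted p = 0.0346), a call lost whichever CTRL or BEND2 library was left out, with adjusted p of 0.187, 0.0674, 0.0743 and 0.183 without CTRL replicates 1 and 2 and BEND2 replicates 1 and 2. INCENP has the highest GC content of the 35 (59.6%), and with the GC and length offsets its change became 0.29 in MN1-BEND2 and 0.78 in MN1-CXXC5.

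AURKB held 63.8 and 66.1 in CTRL, 88.2 and 88.7 in MN1, 75.5 and 73.6 in BEND2, 88.6 and 89.5 in MN1-BEND2 and 69.0 and 67.6 in MN1-CXXC5. MN1 and MN1-BEND2 had nearly the same level and lay above BEND2, which lay above MN1-CXXC5 and CTRL. Its log2 fold change was 0.45 (SE 0.0348, adjusted p = 4.62e-07) in MN1-BEND2, 0.44 (SE 0.0354, adjusted p = 1.65e-06) in MN1 and 0.20 (adjusted p = 0.00402) in BEND2, the last lost without BEND2 replicate 1 (adjusted p = 0.0515). PLK1, the Polo kinase, held 79.9 and 76.0 in CTRL, 100.4 and 93.2 in MN1, 70.9 and 70.2 in BEND2, 102 and 104 in MN1-BEND2 and 74.6 and 78.2 in MN1-CXXC5, with the MN1 and MN1-BEND2 libraries above the other 6. It was higher in MN1-BEND2 by 0.40 (SE 0.0434, adjusted p = 8.51e-06) and in MN1 by 0.31 (adjusted p = 0.000132). In BEND2 it was -0.14 (adjusted p = 0.0580), and with the GC and length offsets it was called lower there, at -0.22 (adjusted p = 0.0110). In the fit without offsets AURKA was called only in MN1, at 106 ± 2.19 CPM against 90.6 ± 3.40 CPM, 0.23 (adjusted p = 0.000716). In MN1-BEND2 its change of -0.02 was among the smallest. BIRC5 was called only in MN1-BEND2 in that fit, at 154 ± 6.13 CPM against 134 ± 5.14 CPM, 0.20 (adjusted p = 0.00262). With the GC and length offsets it was not called there (0.10, adjusted p = 0.102). In MN1-CXXC5 3 of AURKA, AURKB, PLK1 and BIRC5 gained a call with the offsets, as higher.

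Kinetochore and checkpoint genes held the largest rise and the largest fall of the 35 in MN1-BEND2. The kinetochore is the protein plate on the centromere that binds microtubules, and the checkpoint kinases delay anaphase until each is attached. Of the 8 genes, 2 were higher and 6 lower in MN1-BEND2, 2 and 2 in MN1-CXXC5, 2 and 3 in MN1, and 0 and 2 in BEND2. The shares of all genes were 26.7% and 25.2%, 19.2% and 25.1%, 21.6% and 21.4%, and 6.71% and 7.46%. A difference from them was not tested. BUB1 (chr2:110637698-110678114, minus strand), a checkpoint kinase that marks the centromere, held 125 and 128 in CTRL, 140.5 and 137 in MN1, 122 and 123 in BEND2, 193 and 201 in MN1-BEND2 and 138 and 141 in MN1-CXXC5. Both MN1-BEND2 libraries stood above the other 8, the highest of which was 141. The log2 fold change against CTRL was 0.64 (SE 0.0334, adjusted p = 1.92e-08) in MN1-BEND2, 0.14 (adjusted p = 0.00644) in MN1-CXXC5 and 0.13 (adjusted p = 0.00903) in MN1. The small rises were lost without CTRL replicate 1 (adjusted p = 0.0540 in MN1-CXXC5 and 0.0669 in MN1), without MN1-CXXC5 replicate 2 (0.0504) and without MN1 replicate 1 (0.0739). Against MN1 and BEND2 the MN1-BEND2 line was higher by 0.51 (SE 0.0335, adjusted p = 1.68e-07) and 0.68 (SE 0.0336, adjusted p = 1.57e-08).

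NDC80 (chr18:2571511-2616635, plus strand) and NUF2 are the arms of the complex that grips the microtubule. NDC80 held 125 and 129 in CTRL, 86.3 and 89.1 in MN1, 89.5 and 93.2 in BEND2, 70.3 and 72.8 in MN1-BEND2 and 92.8 and 98.8 in MN1-CXXC5. The 4 construct lines lay below both CTRL libraries, MN1-BEND2 lowest of all. The log2 fold change was -0.82 (SE 0.0411, adjusted p = 1.33e-08) in MN1-BEND2, -0.53 (adjusted p = 1.35e-06) in MN1, -0.47 (adjusted p = 5.92e-05) in BEND2 and -0.40 (adjusted p = 1.03e-05) in MN1-CXXC5. NUF2 held 96.6 and 105 in CTRL, 83.8 and 89.3 in MN1, 86.6 and 94.3 in BEND2, 75.5 and 79.0 in MN1-BEND2 and 83.3 and 89.8 in MN1-CXXC5. CTRL was highest and MN1-BEND2 lowest, with the other lines between them and overlapping. It fell by 23.3% in MN1-BEND2 (-0.38, SE 0.0570, adjusted p = 0.000124), fell by 14.2% in MN1 and fell by 14.2% in MN1-CXXC5. The call in MN1 was lost without CTRL replicate 2 or MN1 replicate 1 (adjusted p = 0.0902 and 0.0719), and that in MN1-CXXC5 without CTRL replicate 2 or MN1-CXXC5 replicate 1 (0.0863 and 0.0794).

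CENPF, a large protein of the outer kinetochore, held 612 and 656 in CTRL, 567 and 589.9 in MN1, 575 and 581 in BEND2, 449 and 476 in MN1-BEND2 and 676 and 713 in MN1-CXXC5. MN1-BEND2 was lowest and MN1-CXXC5 highest, with CTRL, MN1 and BEND2 between them. It fell by 27.04% in MN1-BEND2, -0.45 (SE 0.0425, adjusted p = 2.56e-06). The rise in MN1-CXXC5, 0.13 (adjusted p = 0.0245), was lost without CTRL replicate 1 (adjusted p = 0.227) and without MN1-CXXC5 replicate 2 (0.194), and the fall in MN1, -0.13 (adjusted p = 0.0242), without CTRL replicate 2 (0.220) and without MN1 replicate 1 (0.152). CENPA, the histone H3 variant that marks the centromere, held 16.1 and 14.5 in CTRL, 18.6 and 19.7 in MN1, 15.9 and 13.6 in BEND2, 21.0 and 21.5 in MN1-BEND2 and 16.8 and 13.6 in MN1-CXXC5. Both MN1-BEND2 libraries were highest, and its rise was 0.48 (SE 0.101, adjusted p = 0.00164) there, with a larger SE than for most of the group. In MN1-CXXC5 its change of -0.01 was the smallest of the group. The rise in MN1, 0.33 (adjusted p = 0.0215), was lost without CTRL replicate 2 (adjusted p = 0.155), MN1 replicate 1 (0.05002) or MN1 replicate 2 (0.120).

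The motor CENPE, the checkpoint kinase TTK and the checkpoint protein BUB1B were lower in MN1-BEND2. Both libraries there lay below both of CTRL for each gene. CENPE held 139 and 150.3 CPM in CTRL and 111 and 119 in MN1-BEND2, -0.33 (SE 0.0598, adjusted p = 0.000551), and the call ended with the GC and length offsets (-0.15, adjusted p = 0.0754). CENPE has the lowest GC content of the 35, 35.3%. TTK held 147 and 152 CPM in CTRL, 122 and 123 in MN1-BEND2 and 133 and 133 in BEND2, which gave -0.29 (SE 0.0318, adjusted p = 1.01e-05) and -0.17 (adjusted p = 0.00439). BUB1B held 146 and 153 in CTRL and 135 and 138 in MN1-BEND2, a difference of -0.13 (adjusted p = 0.0203) that was lost without CTRL replicate 2 (adjusted p = 0.145) and without MN1-BEND2 replicate 1 (0.115).

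Among the motors and spindle proteins, HMMR changed most. HMMR binds hyaluronan at the cell surface and, inside the cell, the spindle poles. Of the 6 genes, 2 were higher and 3 lower in MN1-BEND2, 2 and 2 in MN1-CXXC5, 2 and 2 in MN1, and 0 and 2 in BEND2. For all genes the shares were 26.7% and 25.2%, 19.2% and 25.1%, 21.6% and 21.4%, and 6.71% and 7.46%. A difference from them was not tested. HMMR (chr5:163460203-163491945, plus strand) held 174 and 179.6 in CTRL, 104 and 105 in MN1, 132 and 140.3 in BEND2, 102 and 105 in MN1-BEND2 and 117 and 124 in MN1-CXXC5. CTRL was highest, BEND2 next, MN1-CXXC5 below it, and MN1 and MN1-BEND2 were lowest and overlapped. HMMR fell by 41.3% in MN1-BEND2, -0.77 (SE 0.0404, adjusted p = 1.98e-08), fell by 41.1% in MN1, -0.76 (SE 0.0409, adjusted p = 9.93e-08), fell by 31.7% in MN1-CXXC5, -0.55 (SE 0.0406, adjusted p = 8.23e-07), and fell by 23.1% in BEND2, -0.38 (SE 0.0397, adjusted p = 0.000253). MN1-BEND2 and MN1 differed by -0.01 (95% interval -0.10 to 0.09). Of its exonic bases, 2.87% are shared with HMMR-AS1, which was near 0 in these libraries.

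NUSAP1, which bundles microtubules near the chromosomes, held 25.8 and 24.1 in CTRL, 31.9 and 31.1 in MN1, 25.7 and 27.2 in BEND2, 38.7 and 36.0 in MN1-BEND2 and 20.9 and 21.3 in MN1-CXXC5. MN1-BEND2 was highest, MN1 next, and MN1-CXXC5 lowest. Its log2 fold change was 0.58 (SE 0.0563, adjusted p = 3.64e-06) in MN1-BEND2, just under the 1.5-fold mark, 0.34 (adjusted p = 0.000631) in MN1 and -0.24 (adjusted p = 0.00813) in MN1-CXXC5. The last was lost without CTRL replicate 1 (adjusted p = 0.0602). DLGAP5, a factor that stabilises the fibres at the chromosomes, held 104 and 105 in CTRL, 123 and 124 in MN1, 108 and 114 in BEND2, 117 and 124 in MN1-BEND2 and 129 and 140.1 in MN1-CXXC5. The lines with MN1 sequence lay above CTRL and BEND2, MN1-CXXC5 highest. It was higher by 0.36 (SE 0.0449, adjusted p = 4.49e-05) in MN1-CXXC5, 0.24 (adjusted p = 0.00103) in MN1 and 0.21 (adjusted p = 0.00192) in MN1-BEND2. KIF11, the motor that pushes the spindle poles apart, held 224 and 229 in CTRL, 221 and 229 in MN1, 215 and 208 in BEND2, 178 and 177 in MN1-BEND2 and 222 and 227 in MN1-CXXC5, and MN1-BEND2 was lowest. It was called only there, at -0.35 (SE 0.0325, adjusted p = 2.51e-06). In MN1 and MN1-CXXC5 its change of -0.01 and -0.01 was among the smallest of the group. KIF2C, a microtubule depolymerase, fell by 12.8% in MN1-BEND2 (-0.20, adjusted p = 0.00149). TPX2 was higher in MN1-CXXC5, at 331 ± 3.62 CPM against 285 ± 6.72 CPM, 0.22 (SE 0.0341, adjusted p = 0.000284). It was lower in MN1, at -0.11 (adjusted p = 0.0229), and in BEND2, at -0.12 (adjusted p = 0.0313). Those falls were lost without CTRL replicate 2 (adjusted p = 0.159 and 0.196), without MN1 replicate 1 (0.182), and in BEND2 also without CTRL replicate 1 (0.0576) or BEND2 replicate 1 or 2 (0.214 and 0.0750).

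**Figure D3:**
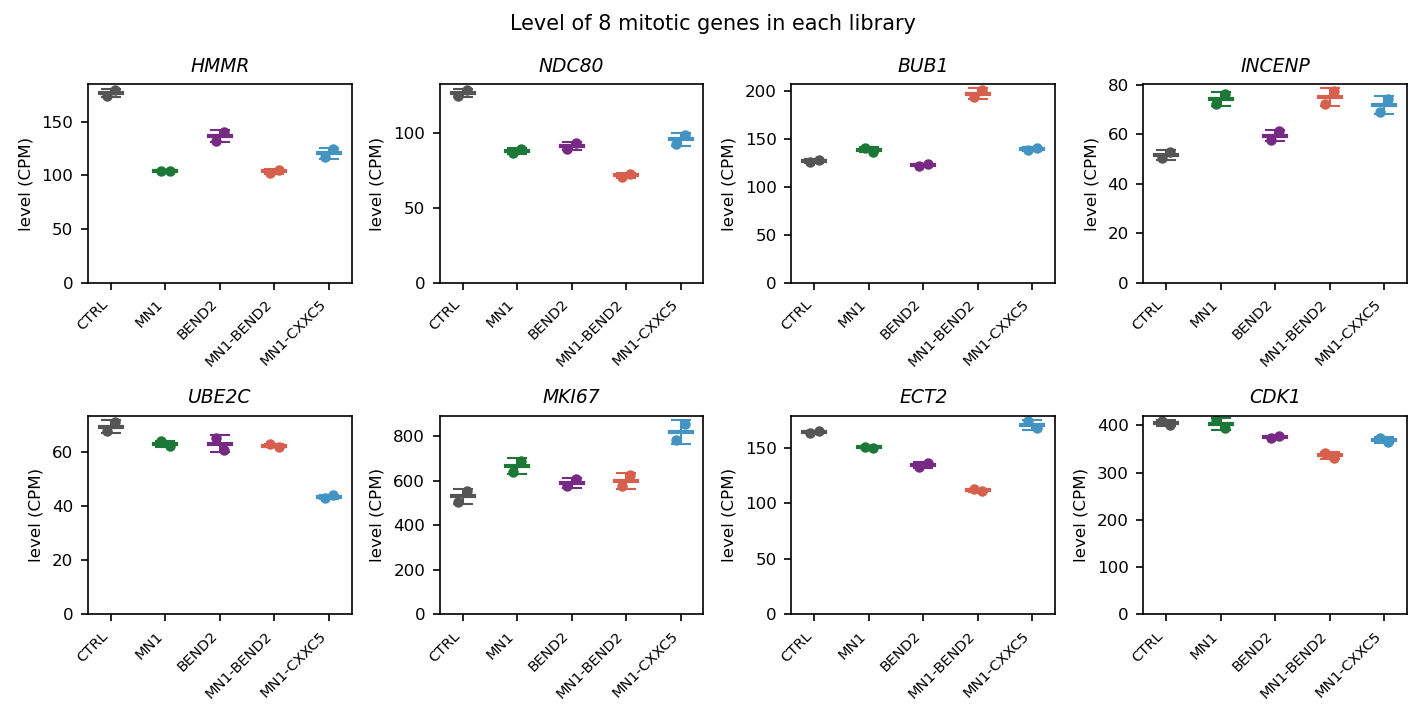
Level in CPM (y axis from 0) of HMMR, NDC80, BUB1, INCENP, UBE2C, MKI67, ECT2 and CDK1 in each of the 10 libraries (points), with the mean (bar) and SD (whiskers) of the 2 libraries of a group. The replicate points of a group lie close together, HMMR and NDC80 are highest in CTRL, BUB1 stands out in MN1-BEND2, UBE2C is lowest and MKI67 highest in MN1-CXXC5.

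Genes of the central spindle and of cytokinesis split. ECT2 switches on RhoA at the cell's equator, KIF20A and KIF23 are motors of the midzone, PRC1 bundles its microtubules, and ANLN links the contractile ring to the membrane. Of the 5 genes, 2 were higher and 2 lower in MN1-BEND2, 2 and 1 in MN1-CXXC5, 3 and 1 in MN1, and 0 and 1 in BEND2. Among all genes the shares were 26.7% and 25.2%, 19.2% and 25.1%, 21.6% and 21.4%, and 6.71% and 7.46%. A difference from them was not tested. ECT2 (chr3:172750682-172821474, plus strand) held 164 and 165 in CTRL, 151 and 150.0 in MN1, 133 and 136 in BEND2, 113 and 111 in MN1-BEND2 and 174 and 168 in MN1-CXXC5. MN1-BEND2 was lowest and BEND2 next, MN1 lay just below CTRL, and MN1-CXXC5 lay above it. The log2 fold change was -0.56 (SE 0.0328, adjusted p = 5.16e-08) in MN1-BEND2 and -0.29 (SE 0.0324, adjusted p = 0.000349) in BEND2. In MN1 it was -0.13 (adjusted p = 0.00743), which was not called with the GC and length offsets (adjusted p = 0.190) or without both CTRL replicate 1 and MN1 replicate 1 (0.0680).

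ANLN held 105 and 102 in CTRL, 139 and 142 in MN1, 107 and 111 in BEND2, 124 and 124 in MN1-BEND2 and 124 and 123 in MN1-CXXC5. MN1 was highest, the fusions were alike, and CTRL was lowest. It was higher by 0.44 (SE 0.0335, adjusted p = 1.23e-06) in MN1, 0.27 (adjusted p = 3.06e-05) in MN1-BEND2 and 0.26 (adjusted p = 8.12e-05) in MN1-CXXC5. KIF23 was lower in MN1-BEND2, at 141 and 152 CPM against 173 and 176 in CTRL (-0.25, adjusted p = 0.000149), and higher in MN1-CXXC5, at 204 and 204 (0.23, adjusted p = 0.000380). Its small rise in MN1, 0.12 (adjusted p = 0.0179), was lost without CTRL replicate 1 or 2 (adjusted p = 0.0950 and 0.0531) and without MN1 replicate 2 (0.113). KIF20A held 99.3 and 98.0 in CTRL, 121 and 123 in MN1, 91.3 and 91.7 in BEND2, 100.0 and 95.2 in MN1-BEND2 and 98.4 and 97.2 in MN1-CXXC5, with MN1 highest. It was called only in MN1, at 0.30 (SE 0.0343, adjusted p = 2.3e-05). Its changes in the fusions, -0.02 in MN1-BEND2 and -0.01 in MN1-CXXC5, were among the smallest of the group. PRC1 held 3.48 and 3.802 in CTRL, 3.06 and 3.796 in MN1, 3.08 and 3.37 in BEND2, 4.59 and 5.40 in MN1-BEND2 and 1.89 and 2.58 in MN1-CXXC5, the lowest level of the 35 genes. MN1-BEND2 was highest, MN1-CXXC5 lowest, with the other 3 groups between them. It was higher in MN1-BEND2 (0.46, SE 0.172, adjusted p = 0.0423) and lower in MN1-CXXC5 (-0.70, SE 0.195, adjusted p = 0.0112). The rise was lost without CTRL replicate 1 or 2 (adjusted p = 0.155 and 0.0799) or MN1-BEND2 replicate 2 (0.254), and the fall without CTRL replicate 2 (0.0620) or MN1-CXXC5 replicate 1 (0.1005).

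At the exit from mitosis, CDC20 activates the anaphase-promoting complex, UBE2C hands it ubiquitin, and PTTG1 (securin) is the substrate whose destruction frees separase. Of the 3 genes, 0 were higher and 1 lower in MN1-BEND2, where 25.2% of all genes were lower, 0 and 3 in MN1-CXXC5 (25.1%), 0 and 2 in MN1 (21.4%), and 0 and 2 in BEND2 (7.46%). With the GC and length offsets 2, 1, 2 and 2 were lower and 0 higher, and a difference from other genes was not tested. UBE2C (chr20:45812576-45816957, plus strand) held 67.7 and 71.1 in CTRL, 63.9 and 62.3 in MN1, 65.3 and 60.8 in BEND2, 62.8 and 62.0 in MN1-BEND2 and 42.9 and 44.0 in MN1-CXXC5. Both MN1-CXXC5 libraries were far below the other 8, and the fall there was -0.68 (SE 0.0470, adjusted p = 5.04e-07). The falls in MN1-BEND2, -0.16 (adjusted p = 0.00994), and MN1, -0.14 (adjusted p = 0.0241), were small. The first was lost without CTRL replicate 2 or MN1-BEND2 replicate 2 (adjusted p = 0.0938 and 0.0579), and the other without CTRL replicate 2, MN1 replicate 1 or MN1 replicate 2 (0.177, 0.0512 and 0.126).

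CDC20 held 111 and 111 in CTRL, 117 and 108 in MN1, 101 and 95.4 in BEND2, 113 and 115 in MN1-BEND2 and 82.9 and 88.4 in MN1-CXXC5. MN1-CXXC5 was lowest and BEND2 next, and MN1 overlapped CTRL. It fell by 23.0% in MN1-CXXC5, -0.38 (SE 0.0482, adjusted p = 6e-05), and with the GC and length offsets the change was -0.07 (adjusted p = 0.247). In BEND2 its fall of -0.17 (adjusted p = 0.0288) was lost without any 1 of the CTRL libraries (adjusted p = 0.106 and 0.109 without replicate 1 and 2) or BEND2 libraries (0.0553 and 0.182). PTTG1 held 145 and 145 in CTRL, 122 and 124 in MN1, 125 and 128 in BEND2, 145 and 151 in MN1-BEND2 and 133 and 137 in MN1-CXXC5. MN1 and BEND2 were lowest, MN1-CXXC5 lay between them and CTRL, and MN1-BEND2 overlapped CTRL. It was lower in MN1, at -0.24 (SE 0.0339, adjusted p = 0.000128), and in BEND2, at -0.20 (SE 0.0335, adjusted p = 0.00288). In MN1-CXXC5 the change was -0.10 (adjusted p = 0.0257), lost without CTRL replicate 1 or 2 (adjusted p = 0.0850 and 0.0790) or MN1-CXXC5 replicate 1 (0.140).

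MKI67 coats the mitotic chromosomes and its protein is the Ki-67 antigen used to mark dividing cells. MKI67 (chr10:128096659-128126385, minus strand) held 505 and 555 in CTRL, 641 and 690.1 in MN1, 576 and 608 in BEND2, 575 and 626 in MN1-BEND2 and 782 and 857 in MN1-CXXC5. MN1-CXXC5 was highest and MN1 next, and both CTRL libraries were lowest. It was higher by 0.63 (SE 0.0599, adjusted p = 6.25e-06) in MN1-CXXC5, 0.33 (adjusted p = 0.000836) in MN1 and 0.18 (adjusted p = 0.0235) in MN1-BEND2. The last was lost without CTRL replicate 1 (adjusted p = 0.206) or MN1-BEND2 replicate 2 (0.205). With the GC and length offsets the rise of MKI67 in MN1-CXXC5 was 0.52 (adjusted p = 3.71e-05). TOP2A held 1314 and 1385 in CTRL, 1147 and 1184 in MN1, 1185 and 1218 in BEND2, 1166 and 1205 in MN1-BEND2 and 1230.2 and 1291 in MN1-CXXC5, with both CTRL libraries above the other 8. The falls were small, -0.21 (adjusted p = 0.000484) in MN1, -0.19 (adjusted p = 0.000845) in MN1-BEND2, -0.17 (adjusted p = 0.00961) in BEND2 and -0.10 (adjusted p = 0.0426) in MN1-CXXC5. The fall in BEND2 was lost without CTRL replicate 2 or BEND2 replicate 1 (adjusted p = 0.0943 and 0.0916), that in MN1-CXXC5 without CTRL replicate 2 or MN1-CXXC5 replicate 1 (0.293 and 0.273), and that in MN1-BEND2 with the GC and length offsets (-0.05, adjusted p = 0.336).

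The 4 comparisons against CTRL share the same 2 control libraries, so their calls are not independent of each other. Comparisons between construct lines use no control library. MN1-BEND2 against MN1-CXXC5 gave 13 genes higher (37.1%, against 31.1% of all genes tested), 15 lower (42.9% against 27.5%), and 4 at 1.5-fold or more (11.4% against 24.1%). PRC1 was 2.24-fold and NUSAP1 1.77-fold higher in MN1-BEND2, 1.16 (SE 0.189, adjusted p = 0.000196) and 0.82 (SE 0.0598, adjusted p = 2.43e-07). ECT2 was 1.53-fold and CENPF 1.501-fold lower, -0.61 (SE 0.0331, adjusted p = 2.21e-08) and -0.59 (SE 0.0426, adjusted p = 2.39e-07). With the GC and length offsets ECT2 and CENPF stayed lower but under 1.5-fold, at -0.39 and -0.35, and so was CENPF without MN1-BEND2 replicate 1 (1.46-fold) or MN1-CXXC5 replicate 2 (1.46-fold). UBE2C, BUB1, CENPA and CDC25C were also higher in MN1-BEND2, by 0.52, 0.50, 0.49 and 0.48, and KIF23, CENPE, MKI67 and NDC80 lower, at -0.47, -0.46, -0.45 and -0.42 (adjusted p at most 0.00153). Of the 28 calls, 21 held whichever library was left out, the exceptions being the small differences of BIRC5, CCNB2, CDK1, DLGAP5, KIF2C, NUF2 and PTTG1, with an adjusted p of 0.0518 to 0.343 without a library.

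Against unfused MN1, the MN1-BEND2 line had 8 genes higher (23.2% of all genes tested) and 14 lower (23.2%), and 0 at 1.5-fold or more (15%). Scaling by library totals alone changed the split to 11 higher and 12 lower. The largest differences were PRC1 at 0.55 (adjusted p = 0.0236) and BUB1 at 0.51 (adjusted p = 1.68e-07) among those higher, and ECT2 at -0.43 (adjusted p = 6.67e-07), CENPE at -0.41 (adjusted p = 0.000141) and KIF23 at -0.37 (adjusted p = 6.58e-06) among those lower. Against unfused BEND2 it had 17 genes higher (21.7% of all genes tested) and 11 lower (21.9%), and at 1.5-fold or more 2 (12.4%), BUB1 at 0.68 (adjusted p = 1.57e-08) and PRC1 at 0.65 (adjusted p = 0.0103). PLK1, CENPA and NUSAP1 followed at 0.55, 0.51 and 0.50, and HMMR and NDC80 were lower, at -0.39 and -0.35. MN1-CXXC5 against unfused MN1 gave 12 genes higher (23.3% of all genes tested) and 13 lower (25.5%), and 1 at 1.5-fold or more (17%), PRC1 at -0.62 (adjusted p = 0.0224). With the GC and length offsets that split became 5 higher and 13 lower. NUSAP1 and UBE2C were lower, at -0.58 (adjusted p = 1.04e-05) and -0.54 (adjusted p = 2.32e-06), and TPX2 and MKI67 higher by 0.33 (adjusted p = 8.95e-06) and 0.30 (adjusted p = 0.00120). Leaving out 1 library ended 4 of 22, 9 of 28 and 13 of 25 calls in these comparisons, and without MN1-CXXC5 replicate 2 the count of genes higher than in MN1 was 5. PRC1 was among them in each. Its adjusted p was 0.167 and 0.168 against MN1 without MN1 replicate 1 and MN1-BEND2 replicate 2, and 0.0888 and 0.0948 against BEND2 without BEND2 replicate 1 and MN1-BEND2 replicate 2. For MN1-CXXC5 against MN1 it was 0.159 and 0.167 without MN1 replicate 2 and MN1-CXXC5 replicate 1.

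GC content moved with the fold changes. The transcripts of the 35 genes ran from 35.3% to 59.6% GC, with a median of 43.2%, below that of all genes tested (47.9%). In MN1-BEND2 against CTRL, Pearson's r between GC and log2 fold change was 0.55 across the 35 genes (Spearman's rho 0.57) and 0.23 across 18127 genes (0.34), a description across genes of the same libraries, which are not independent replicates. Of the 18 genes with the lower GC content, 4 were higher and 12 lower, and of the 17 with the higher GC content 9 and 2. In MN1-BEND2 against MN1-CXXC5 r was 0.52 (rho 0.60), against 0.50 for all genes, and the counts were 2 and 12 at low GC and 11 and 3 at high GC. In MN1-CXXC5 against CTRL r was -0.04 across the 35 genes (rho -0.08) but -0.33 across all genes tested (rho -0.36). A fit with offsets for GC content and length, made for every gene tested, left r at 0.24 for MN1-BEND2 against CTRL and -0.04 between the fusions. For MN1-CXXC5 against CTRL r across the 35 genes became 0.30 with the offsets.

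With these offsets 19 of the 27 calls in MN1-BEND2 kept their direction and call, among them BUB1, NUSAP1, CENPA, INCENP, NDC80, HMMR, ECT2 and CENPF. Those that ended were CDK1, CDC25B, BIRC5, BUB1B, CENPE, PRC1, TOP2A and MKI67. In MN1-CXXC5 15 of 20 were kept and CDC25B, BUB1, CENPF, CDC20 and PTTG1 ended. In MN1 20 of 24 and in BEND2 8 of 12 were kept. New calls arose with the offsets, 3 in MN1-BEND2, 3 in MN1-CXXC5, 1 in MN1 and 1 in BEND2. Genes described above as called only in 1 line are so in the fit without offsets. Between the fusions 17 of 28 were kept: the difference went from 0.38 to 0.01 for AURKB, from 0.43 to 0.01 for PLK1, from 0.41 to -0.08 for CDC20 and from -0.22 to 0.00 for HMMR, while for BUB1 and NUSAP1 it went from 0.50 to 0.64 and from 0.82 to 0.90. Whether the relation to GC content came from the libraries or from the cells was not tested.

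The regulators of these genes were read from a list of 21 (FOXM1, MYBL2, MuvB subunits, E2F factors with their partners, pocket proteins and NF-Y). Against CTRL, 6 higher and 10 lower were called in MN1-BEND2, 5 higher and 9 lower in MN1-CXXC5, 5 higher and 10 lower in MN1 and 1 higher and 5 lower in BEND2. All genes tested gave 26.7% and 25.2%, 19.2% and 25.1%, 21.6% and 21.4%, and 6.71% and 7.46%, in that order. With the GC and length offsets 3 of the 21 were higher and 11 lower in MN1-BEND2. The values of single regulators below are from the fit without offsets. FOXM1, the activator of late mitotic genes, named after its values were seen, changed by 0.29 in MN1-BEND2 and 0.32 in MN1 (adjusted p = 3.15e-05 and 2.67e-05), and by 0.07 in MN1-CXXC5 and 0.03 in BEND2 (not called). MYBL2 changed by 0.13 in MN1-BEND2 and -0.17 in MN1-CXXC5 (adjusted p = 0.00541 and 0.00103), and by -0.03 in MN1 and BEND2 (not called). The MuvB subunit LIN9 changed by -0.33 in MN1-BEND2 and -0.29 in MN1, and LIN54 by 0.33 and -0.35 (adjusted p at most 6.51e-05). NFYA, the regulated subunit of the CCAAT factor NF-Y, rose by 0.84 (SE 0.0461, adjusted p = 1.11e-07) in MN1, 0.79 (SE 0.0467, adjusted p = 1.44e-07) in MN1-CXXC5 and 0.53 (SE 0.0466, adjusted p = 7.23e-05) in BEND2. In MN1-BEND2 it rose by 0.24 (adjusted p = 0.00129). The subunit NFYC was lower in each line, at -0.38 in MN1, -0.24 in MN1-CXXC5, -0.27 in BEND2 and -0.27 in MN1-BEND2 (adjusted p at most 0.00214). The subunit NFYB was lower in MN1, at -0.33 (adjusted p = 0.000324), and not called in MN1-CXXC5 (-0.10) or BEND2 (-0.16). In MN1-BEND2 the NF-Y subunit NFYB was lower at -0.63 (SE 0.0532, adjusted p = 1.08e-06), as were the repressor E2F7, at -0.62 (SE 0.0335, adjusted p = 2.52e-08) and the pocket protein RBL1 (p107) at -0.50 (SE 0.0345, adjusted p = 2.06e-07). RBL1 was also lower in MN1, at -0.67 (SE 0.0357, adjusted p = 9.9e-08), and in BEND2, at -0.32 (SE 0.0341, adjusted p = 0.000288). E2F1 and E2F4 were lower in MN1-CXXC5, at -0.69 (SE 0.0471, adjusted p = 4.37e-07) and -0.54 (SE 0.0546, adjusted p = 1.05e-05).

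Other genes of the same processes, from lists that do not include the 35, moved both ways as well, as did all genes tested. Counts and values of these lists, and of the lists further below, are from the fit without the GC and length offsets. Of all genes, 26.7% were higher and 25.2% lower in MN1-BEND2 and 19.2% and 25.1% in MN1-CXXC5. In MN1 the shares were 21.6% and 21.4%, and in BEND2 6.71% and 7.46%. Of 36 further kinetochore and checkpoint genes, 8 higher and 19 lower were called in MN1-BEND2, 5 higher and 11 lower in MN1-CXXC5, 9 higher and 13 lower in MN1 and 3 higher and 6 lower in BEND2. In MN1-BEND2 the outer kinetochore gene SKA3 was lower at -0.82 (SE 0.0470, adjusted p = 4.2e-08) and the scaffold KNL1 higher at 0.72 (SE 0.0354, adjusted p = 1.18e-08). Of 36 spindle motors and microtubule factors the counts were 10 higher and 15 lower, 12 higher and 5 lower, 14 higher and 10 lower and 4 higher and 7 lower in the same order. The augmin subunits HAUS4 and HAUS1 fell to 5.28 from 15.3 CPM and to 46.0 from 87.9 CPM in MN1-BEND2, -1.53 (SE 0.111, adjusted p = 2.9e-07) and -0.93 (SE 0.0403, adjusted p = 4.11e-09). In MN1, KPNA2 and TACC3 rose by 0.68 (SE 0.0297, adjusted p = 2.17e-08) and 0.61 (SE 0.0343, adjusted p = 1.33e-07).

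Of 7 genes of the passenger complex and of cohesion protection, 4 higher and 1 lower were called in MN1-BEND2, 4 higher and 1 lower in MN1-CXXC5 and 4 higher and 0 lower in MN1. The shares of all genes, for this list and those below, were 26.7% and 25.2%, 19.2% and 25.1%, and 21.6% and 21.4%. Borealin, CDCA8, was higher at 0.38 (SE 0.0462, adjusted p = 2.39e-05) in MN1-BEND2 and 0.28 (SE 0.0475, adjusted p = 0.000501) in MN1. Of 18 cohesin, separase and condensin genes the counts were 4 higher and 11 lower, 7 higher and 3 lower and 6 higher and 8 lower. The cohesin subunit STAG2 was lower at -0.90 (SE 0.0321, adjusted p = 8.39e-10) in MN1-BEND2. It was also lower in MN1, at -0.37 (SE 0.0318, adjusted p = 2.98e-06), and in BEND2, at -0.23 (SE 0.0317, adjusted p = 0.00103). Of 17 genes of the anaphase-promoting complex they were 4 higher and 8 lower, 3 higher and 6 lower and 8 higher and 6 lower. UBE2S, which lengthens the ubiquitin chains that UBE2C begins, was lower in MN1-CXXC5 at -0.90 (SE 0.0350, adjusted p = 5.42e-09) and higher in MN1 at 0.54 (SE 0.0319, adjusted p = 1.84e-07). Of 14 genes that control entry into mitosis they were 5 higher and 7 lower, 2 higher and 4 lower and 4 higher and 6 lower. PKMYT1, a kinase that holds CDK1 inactive, was higher in MN1-BEND2 at 0.84 (SE 0.0522, adjusted p = 7.78e-08) and lower in MN1-CXXC5 at -0.94 (SE 0.0643, adjusted p = 4.69e-07). In BEND2 it was higher at 0.34 (SE 0.0544, adjusted p = 0.00214).

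For comparison with the earlier phase of the cycle, of 41 G1/S and replication genes 10 higher and 17 lower were called in MN1-BEND2, 14 higher and 13 lower in MN1-CXXC5, 18 higher and 6 lower in MN1 and 7 higher and 3 lower in BEND2. All genes tested gave 26.7% and 25.2%, 19.2% and 25.1%, 21.6% and 21.4%, and 6.71% and 7.46%, in that order. RRM2, a subunit of ribonucleotide reductase, rose in MN1-BEND2 by 1.196 (SE 0.0363, adjusted p = 2.71e-10) and in MN1-CXXC5 by 0.73 (SE 0.0370, adjusted p = 4.67e-08). In BEND2 it rose by 0.25 (SE 0.0372, adjusted p = 0.00152). Of 12 CDK inhibitors and D cyclins the counts were 8 higher and 3 lower, 3 higher and 7 lower, 8 higher and 2 lower and 3 higher and 1 lower. Cyclin D1, CCND1, was higher in the 4 construct lines, at 1.08 (SE 0.0479, adjusted p = 5.07e-09) in MN1-BEND2, 1.02 (SE 0.0488, adjusted p = 2.83e-08) in MN1-CXXC5, 0.63 (SE 0.0497, adjusted p = 1.58e-06) in MN1 and 0.43 (SE 0.0498, adjusted p = 0.000404) in BEND2. Differences of these lists from the 35 genes or from all genes were not tested.

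The fold changes can be set against the promoter letters printed above. In MN1-BEND2 against CTRL the median log2 fold change was -0.049 for the 20 genes with TTTGAA and 0.028 for the 10 without, in MN1-CXXC5 -0.008 and 0.016, in MN1 0.006 and 0.008, and in BEND2 -0.101 and -0.071. In MN1-BEND2 against MN1-CXXC5 it was -0.143 and 0.063. For the 15 genes with at least 2 CCAAT and the 15 with fewer it was 0.044 and -0.133 in MN1-BEND2, 0.058 and -0.027 in MN1-CXXC5, 0.130 and -0.032 in MN1, and -0.094 and -0.096 in BEND2, against CTRL. It was 0.123 and -0.107 in MN1-BEND2 against BEND2 and -0.004 and -0.122 between the fusions. These splits were not tested, and the ranges overlapped throughout. Among the genes without TTTGAA, CCNB1, KIF20A, KIF2C, CENPE and PTTG1 hold the related form TTTAAA. In MN1-BEND2 the 20 genes with the letters ran from -0.821 (NDC80) to 0.579 (NUSAP1), and the 10 without from -0.331 (CENPE) to 0.638 (BUB1). HMMR and INCENP, which moved in opposite directions in the 4 construct lines, both hold TTTGAA and CCAAT.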

How the data were processed

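RNA from 10 TREx293 libraries, 5 groups of 2, had been sequenced, and the authors deposited 1 table of raw read counts per gene. The tools named are HISAT2 (an aligner), SAMtools 1.0.1 and featureCounts 2.0.0 (a read counter), with the build GRCh38, per the submitters' processing notes (their order, strand, options and annotation: not given in the sources used here). The table's 58261 lines hold 58216 identifiers (45 with 2 lines, which were summed), and 27 symbols turned into dates were replaced from GENCODE v29, which also gave positions on GRCh38, GC content and length. All columns matched a sample.

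The deposited counts were fitted with edgeR 4.0.16 (R 4.3.3, limma 3.58.1): quasi-likelihood F-test, all 10 libraries, group as the only term, TMM scaling, filterByExpr, Benjamini-Hochberg adjustment over 18127 genes, and a threshold of 0.05. The fit left 5 residual degrees of freedom, with a common biological coefficient of variation of 0.0404. Fold changes are log2 values from this fit, and levels are CPM with TMM factors, mean ± SD over 2 libraries. The floor of 3 counts covers counting error only, since the labels name no molecular identifiers. Members and gene lists were chosen with earlier results of these data known. Named with values from each library were the 4 genes called higher and the 4 called lower with the largest change in each comparison against CTRL, and those that changed least. Of the genes outside the 35, at most 3 were named from each list and comparison, those with the largest change among the called. Regulators named in addition, after their values were seen, were FOXM1, MYBL2, LIN9, LIN54 and the NF-Y subunits. Alternatives were other scalings and filters, a replicate block, offsets for GC content and length (natural splines with 5 degrees of freedom), only the 2 groups compared, each library left out, and DESeq2 1.42.0. Leaving out CTRL replicate 1 together with MN1 replicate 1 was chosen after seeing the data, as were the alternatives of the 1.5-fold count. The fit was tested on simulated data. Lists used for comparison are FOXM1, MuvB and E2F regulators, mitotic entry control, checkpoint and kinetochore, passenger complex and cohesion protection, cohesin with separase and condensin, anaphase-promoting complex, spindle motors, G1/S genes, and CDK inhibitors with D cyclins.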

Additional observations from a re-analysis of the deposited data

How the results depend on the processing

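Of 3849 values of single genes under the alternatives, 3362 kept their side of the threshold, 320 lost the call, 144 gained one and 23 turned. Only genes called in the main fit were counted as turned, so a change of direction in a gene not called there is not among the 23. The largest shift of the median of all genes was -0.0626 on the log2 scale. It came in MN1-BEND2 against MN1-CXXC5 with the replicate block and the GC and length offsets. The labels do not say that replicate numbers mark a shared batch, and the libraries were not taken as paired. Same-numbered libraries did deviate alike: the differences of replicate 1 from replicate 2 correlated between groups at 0.0659 to 0.290 over 10 pairs of groups, above 0.1 in 9. With the replicate number as a block, 13 genes in place of 8 were called higher in MN1-CXXC5 against CTRL and 19 in place of 10 lower in BEND2 against CTRL, and no other count moved by over 1.5 times.

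With GC and length offsets 7 genes were lower in MN1 against CTRL, 1 higher in BEND2 against CTRL, 7 lower in MN1-BEND2 against BEND2, and 5 higher in MN1-CXXC5 against MN1; the block together with the offsets gave 4 for the second and 7 for the last. DESeq2 called 0 higher and 6 lower in BEND2 against CTRL, 4 higher in MN1-BEND2 against MN1, 11 higher in MN1-BEND2 against BEND2, and 7 higher and 8 lower in MN1-CXXC5 against MN1. At 1.5-fold or more, MN1-BEND2 against CTRL had 2 higher with library totals, a mean of at least 1 CPM, the offsets, or the block and offsets. MN1-CXXC5 against CTRL had 1 lower with DESeq2. With the offsets INCENP (1.72-fold) passed the mark there and MKI67 (1.43-fold) did not. MN1-BEND2 against BEND2 had 1 higher with the offsets, the block and offsets, or DESeq2. MN1-CXXC5 against MN1 had 2 lower with library totals, the offsets, or the block and offsets, and 0 with DESeq2. MN1-BEND2 against MN1-CXXC5 had 0 lower with library totals, the offsets, or the block and offsets, and 1 with a mean of at least 1 CPM. The cause was not tested.

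Leaving out 1 library gave 7 to 11 lower in MN1 against CTRL, 0 to 1 higher and 5 to 7 lower in BEND2 against CTRL, and 5 to 11 higher in MN1-CXXC5 against MN1. At 1.5-fold or more it gave 1 to 2 higher in MN1-BEND2 against CTRL, 0 to 1 higher and 1 to 3 lower in MN1-CXXC5 against CTRL, 0 to 1 higher in MN1-BEND2 against MN1, 1 to 2 higher in MN1-BEND2 against BEND2, 0 to 2 lower in MN1-CXXC5 against MN1 and 1 to 2 lower in MN1-BEND2 against MN1-CXXC5. A lone library of a group was then taken to vary like the other groups. Without both CTRL replicate 1 and MN1 replicate 1 the lower genes in MN1 numbered 7, the higher genes in BEND2 0, and those higher by 1.5-fold in MN1-BEND2 2, against CTRL.

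Among genes called in the main fit, the directions that turned did so with the offsets (value with the block added in parentheses). Turns of genes not called there are not listed. In MN1-BEND2 against CTRL the median of the 3 genes of mitotic exit went from 0.03 to -0.16 with the offsets. CDC25B became -0.102 (-0.102) in MN1-BEND2 and 0.031 (0.032) in MN1-CXXC5 against CTRL. In MN1-CXXC5 against MN1, TTK became -0.019 (-0.019), KIF23 -0.025 (-0.025) and TOP2A -0.025 (-0.025). In MN1-BEND2 against MN1-CXXC5, CDK1 became 0.086 (0.086), CDC25B -0.133 (-0.134), BIRC5 -0.074 (-0.074), NUF2 0.011 (0.0078), DLGAP5 0.028 (0.027), CDC20 -0.085 (-0.083) and HMMR 0.0011. Depth limits PRC1 most, with 32 counts in its smallest library, and 2 libraries a group limit the precision of every value.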
